A study of Bos taurus with 9 samples.

Results

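Stitched H3K27ac domains are long stretches of the genome in which many H3K27ac peaks lie close together. They were built from the peak list of control MDBK cells by joining H3K27ac peaks whose gap was 12.5 kb or less. A domain was kept when its peaks summed to 5000 bp or more of covered length, on the 30 nuclear chromosomes. This rule kept 1575 of 24395 stitched regions (6.46%). The control H3K27ac list chose the domains, so its values in them are a description of the choice and not a finding, and the direction of the H3K27ac change in them carries the same limit. The peak lists hold positions only, without a height or score. The domains were therefore ranked by covered length and not by signal as super-enhancers usually are, and they may include promoters.

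H3K27ac is an acetyl mark of active enhancers and promoters. Clusters of H3K27ac-marked enhancers that extend over many kilobases are known as super-enhancers, and they are often found near genes that define the identity of a cell. H3K9ac is an acetyl mark of active promoters and enhancers, RNA polymerase II (Pol II) is the enzyme that transcribes genes and also occupies many active enhancers, and H3K9me3 is a mark of repressed heterochromatin. Butyrate is a short-chain fatty acid produced by rumen microbes. It inhibits histone deacetylases, the enzymes that remove acetyl groups from histones.

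MDBK is an established epithelial cell line derived from the kidney of a cow, which the labels give as Holstein, and all groups came from this line. Chromatin was taken from untreated control cells and from cells kept for 24 h in medium with 5 mM butyrate, and each was precipitated with 4 antibodies (H3K9ac, H3K27ac, Pol II and H3K9me3). Each of the 8 groups had 1 library. No difference between conditions therefore had a replicate check, and no test was run. Lane 4 carried the control libraries and lane 5 those from butyrate, so that lane and treatment cannot be told apart. Intervals given below are 95% Wilson intervals over domains or peaks, which cover counting error only and treat neighbouring domains as independent. A cell type check against marker genes was not made, because no gene annotation of the assembly of the lists (UMD3.1) was used here.

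The deposited lists held between 25623 peaks (control H3K9me3) and 187465 peaks (butyrate H3K27ac) on the nuclear chromosomes. The number of reads behind a list is not held in it, and a deeper library gives more peaks. In the alignment summary of the study, the butyrate H3K27ac and Pol II libraries had more unique alignments than their controls, and the butyrate H3K9ac and H3K9me3 libraries had fewer. The part of depth in the comparisons below was not tested.

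The 1575 domains spanned 69.8 Mb in all, which was 2.62% of the span of the lists. Their H3K27ac peaks covered 16.1 Mb in control, and they held 42.5% of all control H3K27ac bases and 33.6% of all control H3K27ac peaks. Span ranged from 6464 to 280711 bp with a median of 36797 bp, and 72 domains spanned 100 kb or more. Peak number per domain ranged from 4 to 149 with a median of 17. The domains were mostly gap, since H3K27ac peaks covered a median of 23.5% of a span (quartiles 17.3% and 32.3%). Only 109 domains held an H3K27ac peak of 3 kb or more, so most were runs of short peaks and not single broad blocks.

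Covered length per domain declined without a visible step from the largest domain (101179 bp) to the threshold. The median was 7629 bp, and the largest domain was 13.3 times the median. The 100 largest domains held 20.6% of the H3K27ac bases of all 1575, and 115 domains had 20 kb or more of covered length. The last 2 domains inside the threshold had 5007 bp (chromosome 14 from 57261526 to 57286999) and 5001 bp (chromosome 7 from 98394121 to 98454517). The first 2 outside it had 4999 bp (chromosome 10 from 79686603 to 79720586) and 4997 bp (chromosome 21 from 23148622 to 23171856). A further 2231 stitched regions had 2500 to 5000 bp, and they are used below as the nearest comparison.

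**Figure D1:**
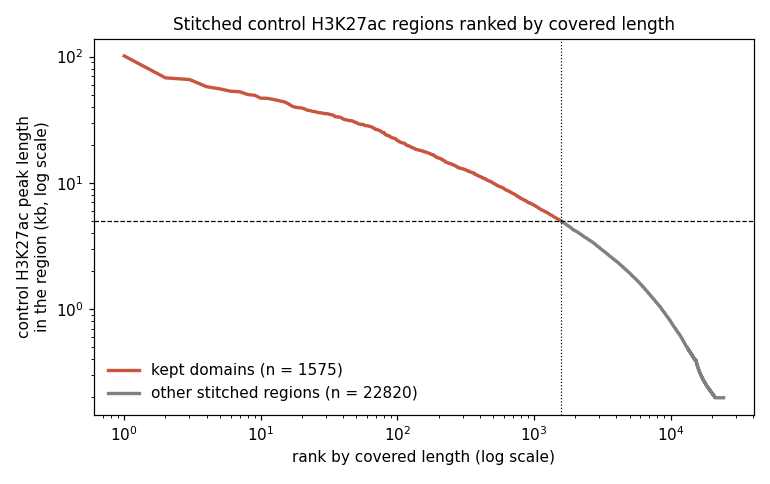
Covered length of control H3K27ac peaks (kb, log scale) against rank (log scale) for all 24395 stitched regions, with the 1575 kept domains in red, the rest in grey, and the 5 kb threshold dashed. The curve runs from 101179 bp to the threshold without a break at it.

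The domains were unevenly spread over the chromosomes. Chromosome 5 held 134 domains, which was 1.87 times the genome-wide density per Mb, and chromosome 10 held 86 (1.39 times). Chromosome X held 11 domains, 0.125 times the genome-wide density. The share of a chromosome's stitched regions that reached 5000 bp was 8.49% on chromosome 5 and 1.81% on chromosome X. The domains also lay close to one another. The median distance to the nearest other domain was 158.1 kb, and 657 of 1575 (41.7%) lay within 100 kb of another, while even spacing would put them 1689 kb apart.

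The first question was which of the 8 lists reached into these domains. Control H3K9ac, butyrate H3K9ac, control H3K27ac and butyrate H3K27ac had a peak in 1575, 1536, 1575 and 1575 domains. Pol II had a peak in 1155 domains in control (73.3%, 71.1 to 75.5) and in 1434 after butyrate (91.0%, 89.5 to 92.4). H3K9me3 had a peak in 786 domains in control (49.9%, 47.4 to 52.4) and in 920 after butyrate (58.4%, 56.0 to 60.8). Over all 24395 stitched regions, H3K9ac had a peak in 55.2% in control and 55.5% after butyrate. For Pol II these shares were 22.8% and 31.65%, and for H3K9me3 12.9% and 17.4%. Butyrate H3K27ac had a peak in 68.3% of them. All 8 lists had a peak in 528 domains (33.5%). Long domains have more room for a peak of any list, and the presence of H3K9me3 peaks in so many of them mostly meant short stretches, as the covered lengths below show.

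Covered length in the domains moved in different directions for the 4 antibodies. Summed H3K9ac length was 11.57 Mb in control and 7.92 Mb after butyrate (log2 ratio -0.55). For H3K27ac the sums were 16.12 Mb and 20.71 Mb (log2 ratio 0.36). Pol II length was 0.911 Mb and 2.07 Mb (log2 ratio 1.18), and H3K9me3 length was 0.404 Mb and 0.782 Mb (log2 ratio 0.95). The domains thus had less H3K9ac and more Pol II after butyrate, which was opposite to the whole lists, where the log2 ratio was 0.35 for H3K9ac and -0.71 for Pol II. H3K27ac and H3K9me3 were longer after butyrate in the domains and in the whole lists, but by less in the domains (0.36 against 1.09, and 0.95 against 1.95).

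These shifts changed how much of each list fell in the domains. The share of all H3K9ac bases that lay in them was 39.98% in control and 21.4% after butyrate, and the share of H3K27ac bases was 42.5% and 25.6%. The share of H3K9me3 bases was 6.46% and 3.23%. Pol II was the exception among the 4 antibodies, with 6.57% of its bases in the domains in control and 24.4% after butyrate. The domains occupied 2.62% of the span, so all 8 lists were denser in them than over the genome.

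Typical domains showed the same as the sums. The median H3K9ac length per domain was 5546 bp in control, with a range of 232 to 79224 bp, and 3992 bp after butyrate, with a range of 0 to 55413 bp. The median H3K27ac length was 7629 bp (5001 to 101179) in control and 9977 bp (329 to 146274) after butyrate. Median Pol II length was 398 bp (0 to 9104) and 898 bp (0 to 15825), and median H3K9me3 length was 0 bp (0 to 4040) and 199 bp (0 to 11569). The ranges of control and butyrate overlapped for each antibody. A length of 199 bp is the shortest that the lists contain, so the H3K9me3 median corresponds to 1 peak of the smallest size.

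**Figure D2:**
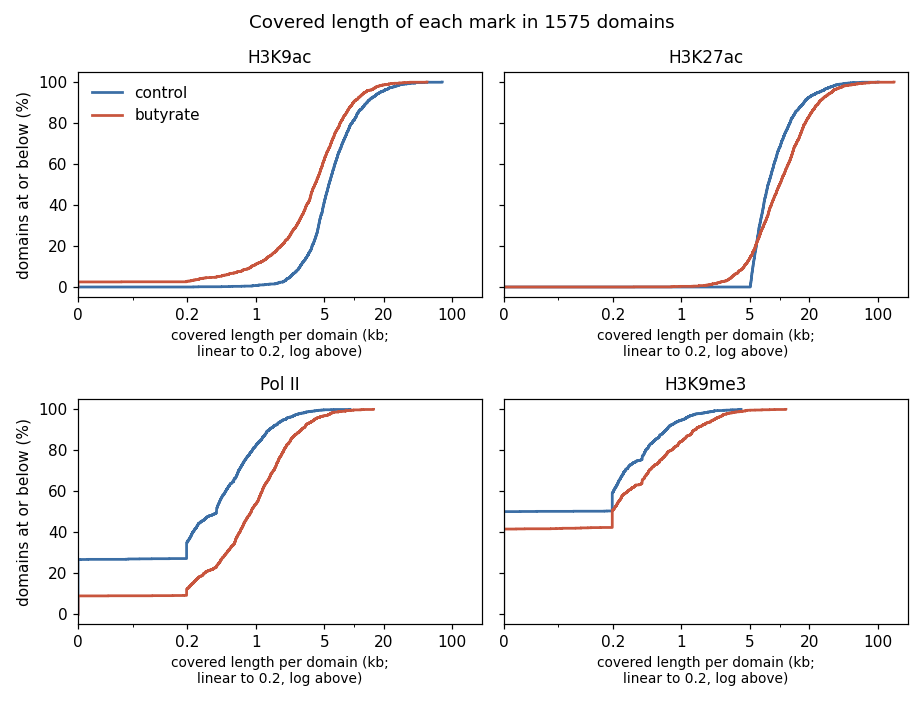
Share of the 1575 domains (%) at or below a given covered length (kb, linear to 0.2 and log above), 1 panel per antibody, control in blue and butyrate in red. The butyrate curve lies to the left of control for H3K9ac (medians 3992 and 5546 bp) and to the right for Pol II (898 and 398 bp), and the jump at 0.2 kb for Pol II and H3K9me3 is the shortest peak.

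Counted by domain, H3K9ac was longer after butyrate in 332 of 1575 domains (21.1%, 19.1 to 23.2), against 44.6% of all stitched regions with an H3K9ac peak in either list. It was at least 2 times as long in 29 domains (1.84%, background 25.6%) and at most 0.5 times as long in 539 (34.2%, background 29.8%). The background includes regions without control H3K9ac (16.3% had it after butyrate only), whereas all 1575 domains had H3K9ac in control. The nearest stitched regions, of 2.5 to 5 kb, were closer to the domains, with 31.1% longer, 7.39% at least 2 times as long and 31.2% at most 0.5 times as long. In the domains, 39 had no H3K9ac left after butyrate (2.48%, background 15.9%). The share with longer H3K9ac was 6.87% with a stitching gap of 5000 bp and 2.35% with peaks of 500 bp or more in every list. The 29 domains with a large gain became 1 of 1077 and 4 of 600 domains under these settings. They were 3 of 809 at 7500 bp of covered length, 59 of 1786 with a gap of 20000 bp and 77 of 1575 at a fold of 1.5. No background share was computed under these settings.

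H3K27ac was longer after butyrate in 944 of 1575 domains (59.9%, 57.5 to 62.3), at least 2 times as long in 254 (16.1%) and at most 0.5 times as long in 87 (5.52%). Over all stitched regions these shares were 30.8%, 10.9% and 40.5%. The list that chose the domains is part of this contrast, so nothing was read from the difference. The direction also turned with the processing. With peaks of 500 bp or more in every list, 24.5% of domains had longer H3K27ac after butyrate (log2 ratio of the sums -0.33), and with a stitching gap of 5000 bp the share was 42.7% (log2 ratio -0.026). With lists of equal number, the share was 45.8% and the log2 ratio 0.077. Each domain kept some H3K27ac, and the lowest value after butyrate was 329 bp.

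Pol II was longer after butyrate in 1169 of the 1490 domains with a Pol II peak in either list (78.5%, 76.3 to 80.5), against 66.5% of all stitched regions with such a peak. It was at least 2 times as long in 850 (57.0%, background 55.8%) and at most 0.5 times as long in 131 (8.79%, background 25.4%). The domains therefore stood above the background in the share with longer Pol II and below it in the share with a large loss, while the share with a large gain was near it. In the regions of 2.5 to 5 kb, Pol II was longer in 72.0%, at least 2 times as long in 57.9% and at most 0.5 times as long in 16.7%. In those under 2.5 kb these shares were 62.3%, 54.9% and 31.7%. The shares with longer Pol II and with a large loss thus went step by step with region size, with the domains at 1 end. There were 335 domains that had Pol II after butyrate and none in control (22.5%, background 43.3%), and 56 with the reverse (3.76%, background 21.3%). Both shares were below the background. Stitched control H3K27ac regions as a whole, large or small, had more Pol II length after butyrate, with a log2 ratio of 0.96 over all 24395 and 1.18 over the domains.

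H3K9me3 was longer after butyrate in 707 of the 1121 domains with an H3K9me3 peak in either list (63.1%, 60.2 to 65.8), against 62.9% of all stitched regions with such a peak. It was at least 2 times as long in 550 (49.1%, background 54.2%) and at most 0.5 times as long in 256 (22.8%, background 28.5%). None of these shares set the domains apart by much from other stitched regions. When the butyrate H3K9me3 list was reduced to the size of the control list by keeping the longest peaks, the share with longer H3K9me3 was 37.5% and the log2 ratio of the sums was -0.051. With peaks of 500 bp or more in every list, the share was 79.4% and the log2 ratio 2.45. The direction thus differed between settings, and the cause was not tested.

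The choice of domains from control H3K27ac could favour regions that were high in control, and 2 other choices were compared with it after the data had been seen. When the same rule was applied to the bases covered in both H3K27ac lists, 776 domains were found. In those, the log2 ratio was -0.57 for H3K9ac and 1.44 for Pol II, and 19.1% of domains had longer H3K9ac and 85.7% longer Pol II after butyrate. When the rule was applied to the butyrate H3K27ac list, 3912 domains were found. In those, H3K9ac was longer after butyrate in 64.8% (log2 ratio 0.19), and Pol II in 66.8% (log2 ratio 0.67). Greater Pol II length after butyrate was therefore seen under all 3 choices of domains, and shorter H3K9ac only where control H3K27ac took part in the choice.

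The butyrate domains were compared with the control domains by position. Of 1575 control domains, 1400 (88.9%) touched a domain found on the butyrate list, and 175 touched none. Of the 3912 butyrate domains, 1320 touched a control domain and 2592 (66.3%) did not. There were 105 butyrate domains that joined 2 or more control domains, taking in 224 of them, and 39 control domains were split over 2 or more butyrate domains. The butyrate domain of greatest span lay on chromosome 8 from 40441943 to 40956620 (514.7 kb, 381 peaks, 238.7 kb covered), and it joined 4 control domains. In the 1320 butyrate domains that touched a control domain, H3K9ac length was 0.868 times that of control and Pol II 1.98 times. In the 2592 that did not, the ratios were 1.66 and 1.28.

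The difference in H3K9ac and Pol II was greater in larger domains. From domains of 5 to 7.5 kb covered length (n = 766) through 7.5 to 10 kb (n = 309) and 10 to 20 kb (n = 385) to 20 kb or more (n = 115), the ratio of summed H3K9ac length, butyrate to control, was 0.795, 0.712, 0.657 and 0.570. The ratio of Pol II length over the same classes was 2.06, 2.14, 2.28 and 2.76. H3K9ac was longer after butyrate in 26.5% of domains in the smallest class (23.5 to 29.7). In the class of 10 to 20 kb this share was 14.0% (10.9 to 17.9). The nearest stitched regions below the threshold, of 2.5 to 5 kb, had an H3K9ac ratio of 0.854 and a Pol II ratio of 1.97, and those under 2.5 kb had 1.08 and 1.64. The order of classes was set by the same control list that chose the domains.

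Positions within the domains were divided into the bases of the control H3K27ac peaks (16.12 Mb) and the gaps between them (53.6 Mb). Control H3K9ac covered 53.3% of the peak bases and 5.56% of the gap bases, and butyrate H3K9ac covered 28.1% and 6.32%. The lower H3K9ac was thus located in the control H3K27ac peaks, which the control list had defined, and not in the gaps. Butyrate H3K27ac covered 66.5% of the peak bases and 18.6% of the gap bases, where control H3K27ac was 100% and 0% by construction. Nearly equal lengths of butyrate H3K27ac lay on old peak bases (10.7 Mb) and on gap bases (9.996 Mb).

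Pol II showed the opposite distribution. It covered 2.67% of the control H3K27ac peak bases in control and 8.75% after butyrate, while in the gaps it covered 0.898% and 1.23%. Of the Pol II bases in the domains, 47.1% lay on control H3K27ac peaks in control and 68.1% after butyrate. H3K9me3 was nearly level on the old peaks (1.12% and 1.27%), and its greater length after butyrate lay in the gaps (0.416% and 1.07%). Outside the list that chose the domains, H3K9ac was thus lower and Pol II higher mainly on the control H3K27ac peaks, and H3K9me3 was higher mainly in the gaps.

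Each domain begins and ends with an H3K27ac peak by construction, and H3K9ac coverage, like that of butyrate Pol II, was higher in the outer parts of the domains than in the centre. Averaged over domains scaled to the same length, control H3K9ac covered 17.6% of the central part (20% of the length) and 19.3% of the outer parts (20% at each end), and butyrate H3K9ac 11.1% and 12.2%. Pol II covered 1.32% of the central and 1.33% of the outer parts in control, and 2.87% and 3.53% after butyrate. H3K9me3 covered 0.535% of the central and 0.512% of the outer parts in control, and 1.20% and 1.02% after butyrate. In the first and last of 40 equal bins, however, it covered 0.903% and 0.782% in control, and 1.66% and 1.51% after butyrate. At the very edges H3K9me3 was thus above the central part. Outside the domains, flanks were measured once where they overlapped, with the bases of other domains left out. In these, Pol II covered 0.791% in control and 0.817% after butyrate from 0 to 5 kb beyond an edge. From 5 to 12.5 kb, where no other domain can lie, it covered 0.642% and 0.375%. From 25 to 50 kb it covered 0.794% and 0.636%. With the other domains left in, as in the plot of mean coverage, Pol II covered 0.853% in control and 0.926% after butyrate from 26 to 50 kb. The Pol II difference was small next to that inside the domains in both cases. Its direction differed between the first 5 kb and the next stretch to 12.5 kb, and beyond 25 kb it depended on whether neighbouring domains were counted.

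With other domains left out, H3K9ac in the flanks was higher after butyrate, with 2.15% in control and 3.72% after butyrate from 0 to 5 kb, and 2.13% and 3.11% from 25 to 50 kb. With other domains left in, it was about level from 26 to 50 kb, at 4.02% and 4.08%. Butyrate H3K27ac covered 9.33% of the first 5 kb beyond the edges and 5.40% from 5 to 12.5 kb, where control H3K27ac is 0 by construction. From 25 to 50 kb, without other domains, H3K27ac covered 2.56% in control and 7.08% after butyrate. H3K9me3 covered 0.357% of the first 5 kb in control and 1.30% after butyrate, and after butyrate the domains themselves (1.12%) were close to this level.

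**Figure D3:**
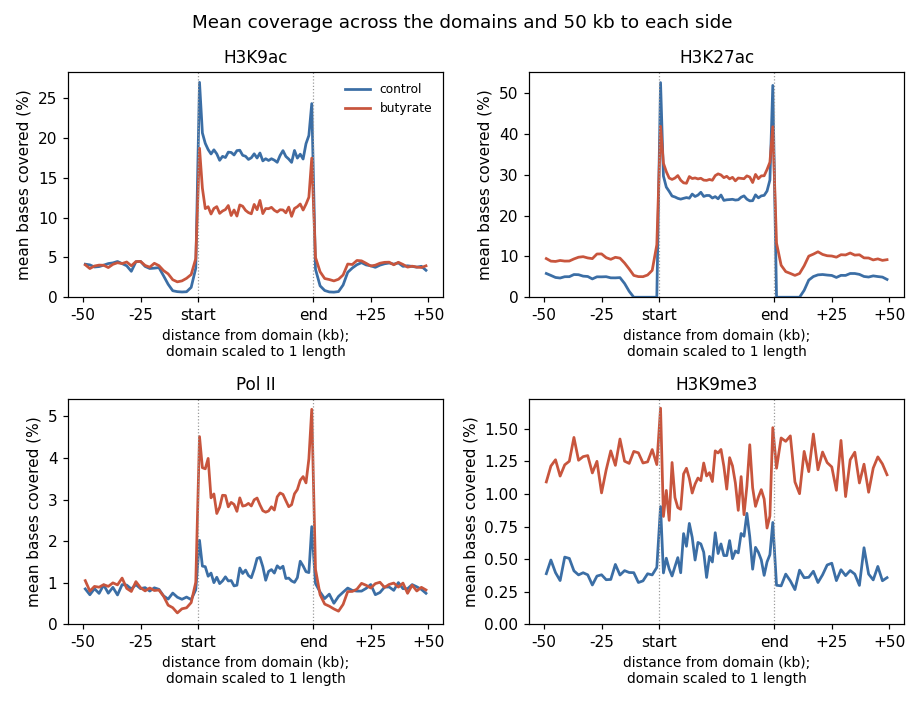
Mean share of bases covered (%) across the 1575 domains, each scaled to 1 length, and in bins of 2 kb over 50 kb to each side with neighbouring domains left in, control in blue and butyrate in red. Within the domains the butyrate curve is below control for H3K9ac (11.1% and 17.6% in the central part) and above it for Pol II (2.87% and 1.32%), and the control H3K27ac curve is 0 next to the edges because of the stitching rule.

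At the level of single peaks, 57.8% of control H3K27ac peaks in the domains were overlapped by a control H3K9ac peak (57.2 to 58.3), against 39.3% of control H3K27ac peaks elsewhere (38.9 to 39.7). Retention was measured as the share of control peaks overlapped by a butyrate peak of the same antibody by at least 1 bp. For H3K27ac it was 75.7% in the domains (75.2 to 76.1) and 60.9% elsewhere (60.5 to 61.3). For H3K9ac it was 51.4% (50.8 to 52.0) and 47.2% (46.8 to 47.7). Control Pol II peaks were retained in 19.6% of cases in the domains (18.4 to 21.0) and in 3.57% elsewhere (3.42 to 3.73). For H3K9me3 the shares were 15.4% (13.7 to 17.2) and 16.1% (15.7 to 16.6), which overlapped in their intervals. Butyrate Pol II covered 2.97% of the span of the domains and 0.247% of the rest, and butyrate H3K27ac 29.7% and 2.33%. Control H3K27ac peaks were also longer in the domains (median 345 against 269 bp). Peaks placed anywhere would thus overlap more often in the domains, and nothing was read from these differences in overlap and retention. Most control Pol II peaks thus had no butyrate Pol II peak on them, inside the domains as well as outside. Of the control Pol II peaks, 30.5% in the domains and 37.1% elsewhere had the shortest length of 199 bp. A lack of overlap between such short peaks, from 1 library each, does not show that Pol II had moved.

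Most Pol II peaks of the butyrate list lay on H3K27ac. In the domains, 88.2% of 6894 butyrate Pol II peaks overlapped a butyrate H3K27ac peak (87.4 to 89.0), and 75.5% overlapped a control H3K27ac peak (74.4 to 76.5). Elsewhere these shares were 51.0% and 30.03%. Of 3569 control Pol II peaks in the domains, 57.1% overlapped a control H3K27ac peak (55.4 to 58.7), against 6.21% elsewhere. After butyrate, 47.7% of the 2704 H3K9me3 peaks in the domains overlapped a butyrate H3K27ac peak (45.8 to 49.6), against 4.51% elsewhere (4.38 to 4.65). Butyrate H3K27ac covered 29.7% of the span of the domains and 2.33% of the rest, and control H3K27ac 23.1% and 0.842%, so peaks placed anywhere in the domains would meet H3K27ac more often than elsewhere. Nothing was read from these differences between domains and elsewhere. All lists were called against the same input library, which was not analysed here, and its part in such joint peaks was not tested.

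Taken over all peaks, those of H3K9ac were shorter after butyrate, in the domains and also elsewhere. Of the butyrate H3K9ac peaks in the domains, 63.1% met a control H3K9ac peak. Median H3K9ac peak length in the domains was 347 bp in control and 301 bp after butyrate, and the number of H3K9ac peaks of 1 kb or more was 1725 in control and 294 after butyrate. The longest was 5840 bp and 2584 bp. Elsewhere the median H3K9ac peak length was 283 bp in control and 265 bp after butyrate. Peaks of 1 kb or more were 843 (1.72%) and 351 (0.377%) elsewhere, against shares of 6.91% and 1.33% in the domains. H3K27ac peaks in the domains did not shorten in this way, with medians of 345 and 396 bp. Those of 1 kb or more numbered 3220 and 4250, but the longest was 7401 bp in control and 5858 bp after butyrate. Pol II peaks of 1 kb or more in the domains numbered 1 in control and 46 after butyrate, and elsewhere 3 and 30. The longest Pol II peak in the domains went from 2325 to 5500 bp.

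Longer control peaks were more often retained, and the longest were mostly met by 2 or more butyrate peaks. Among control H3K9ac peaks in the domains, 35.2% of those under 300 bp were retained (34.2 to 36.1), 69.8% of those of 500 bp to 1 kb (68.6 to 71.0) and 97.9% of the 144 of 2 kb or more (94.1 to 99.3). Those of 500 bp to 1 kb met 2 or more butyrate peaks in 11.4% of cases. Of the 144, 123 (85.4%) met 2 or more butyrate peaks, and 47.7% of their bases stayed covered. For H3K27ac, 62.8% of control peaks under 300 bp were retained (62.0 to 63.6) and 99.4% of the 507 of 2 kb or more (98.3 to 99.8). Of those 507, 409 (80.7%) met 2 or more butyrate peaks and 76.5% of their bases stayed covered. A longer peak has more chance of an overlap of 1 bp. Butyrate H3K27ac also covered 29.7% of the span of the domains, against 11.35% for butyrate H3K9ac. Nothing was therefore read from differences in these shares between lengths or between antibodies.

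The 2 acetyl marks changed together from domain to domain, but with H3K9ac set lower. Among the 1536 domains with both marks in both conditions, the log2 ratios of H3K27ac and H3K9ac length had a Spearman rho of 0.79 and a Pearson r of 0.76. This is a description over domains of the same 4 libraries, and the length of a domain enters both. Of the 944 domains with longer H3K27ac after butyrate, 621 had shorter H3K9ac, and only 9 domains had longer H3K9ac and shorter H3K27ac. The most frequent combination of 3 antibodies was longer H3K27ac, shorter H3K9ac and longer Pol II, in 488 domains (31.0%). Next were shorter H3K27ac, shorter H3K9ac and longer Pol II in 432 (27.4%), and all 3 longer in 243 (15.4%). All 3 were shorter in 123 (7.81%). Taken singly, H3K27ac was longer in 944, H3K9ac shorter in 1243 and Pol II longer in 1169 of the 1575 domains. The most frequent combination thus joined the more frequent change of each antibody, and whether its number differed from that of independent changes was not tested. The combinations were not counted over all stitched regions, and nothing was read from their numbers.

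**Figure D4:**
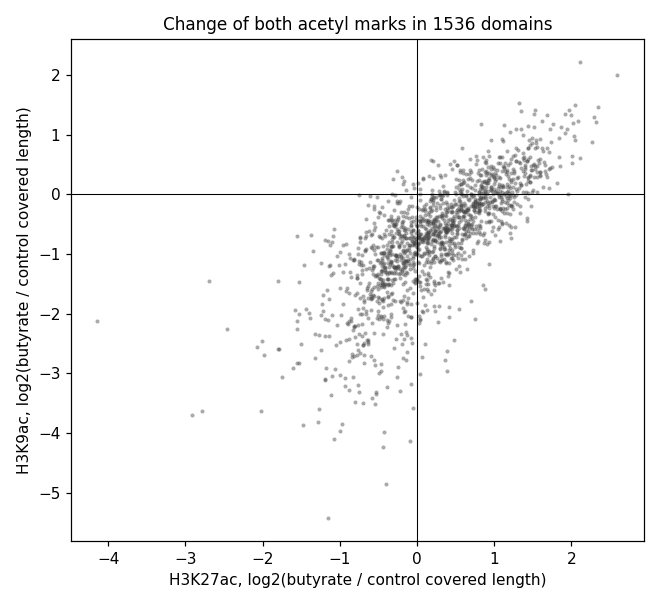
Log2 ratio of butyrate to control covered length for H3K9ac (y) against H3K27ac (x), 1 point for each of the 1536 domains with both marks in both conditions. The points form a rising cloud (Spearman rho 0.79) that is shifted down on the H3K9ac axis, and the upper left of the plot, with longer H3K9ac and shorter H3K27ac, holds 9 domains.

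Domains grouped by their H3K27ac change showed how the other marks went with it. In the 87 domains where H3K27ac was at most 0.5 times as long after butyrate, summed H3K9ac length was 509.2 kb in control and 119.8 kb after butyrate (ratio 0.235), and H3K9ac was shorter in all 87. Pol II length in these domains was 21.7 kb in control and 43.4 kb after butyrate (ratio 2.00), with 43 domains longer and 22 shorter. H3K9me3 length was 13.8 kb and 41.8 kb (ratio 3.04). In the 254 domains where H3K27ac was at least 2 times as long, H3K9ac was 1663.6 kb and 2074.1 kb (ratio 1.25) and Pol II was 242.9 kb and 449.5 kb (ratio 1.85). Pol II length was thus greater after butyrate at both ends of the H3K27ac change, while the H3K9ac ratio ran from 0.235 to 1.25. The 254 domains were also richer in Pol II before treatment, with a Pol II peak in 92.5% in control (88.6 to 95.2) against 43.7% of the 87 (33.7 to 54.1). Long domains have more room for a peak. As a share of span the contrast was smaller, with control Pol II on 1.61% of the 254 and 0.791% of the 87.

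The acetyl ratios were much alike over the autosomes, and those of Pol II and H3K9me3 were more spread. H3K9ac length was shorter after butyrate on all 30 chromosomes, with ratios between 0.538 (chromosome 13) and 0.832 (chromosome 22) on the autosomes. Chromosome X stood apart, with an H3K9ac ratio of 0.211 (51.2 kb and 10.8 kb) and an H3K27ac ratio of 0.594 (110.2 kb and 65.5 kb) over its 11 domains. H3K27ac was longer after butyrate on each autosome, with the lowest ratio on chromosome 13 (1.01). Pol II was longer on all 30 chromosomes, with the lowest ratios on chromosomes 14 (1.34) and 5 (1.44) and the highest on chromosome 25 (5.72, from 4.74 to 27.1 kb). H3K9me3 ratios ran from 0.976 (chromosome 22) to 4.26 (chromosome 23), on small lengths of 6.27 and 4.32 kb in control. Chromosome 5 also had the most Pol II and H3K9me3 length in its domains in control, 155.3 kb and 94.3 kb.

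The 10 domains of greatest control H3K27ac covered length lay on 10 different chromosomes, and they are described by their covered lengths in the 8 lists. The gene content of these regions was not analysed here. H3K9ac was shorter after butyrate in all 10. Pol II was longer in 8, and H3K27ac was longer in 6 and shorter in 4. H3K9me3 was longer in 6 and shorter in 4.

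The largest domain lay on chromosome 8 from 40442374 to 40723084, spanned 280.7 kb and held 149 control H3K27ac peaks, so it also had the greatest span and the most peaks. Its covered length in control and after butyrate was 79224 and 55413 bp for H3K9ac, 101179 and 146274 bp for H3K27ac, 4259 and 12564 bp for Pol II, and 1430 and 1372 bp for H3K9me3. It combined shorter H3K9ac with longer H3K27ac and longer Pol II, the most frequent combination among the domains.

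The second domain was the most compact of the 10, on chromosome 19 from 10939354 to 11049858, with 61.4% of its 110.5 kb under H3K27ac peaks. Its values, control then butyrate, were 51606 and 22093 bp for H3K9ac, 67894 and 56056 bp for H3K27ac, 4065 and 12042 bp for Pol II, and 267 and 393 bp for H3K9me3. Pol II was much longer here although both acetyl marks were shorter. The same held for the third domain, on chromosome 2 from 36175270 to 36319802, which had 49232 and 13030 bp of H3K9ac, 65855 and 38825 bp of H3K27ac, 1568 and 5630 bp of Pol II, and 1529 and 1388 bp of H3K9me3.

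Chromosome 12 from 51028277 to 51201233 held the fourth domain, with 42400 and 33315 bp of H3K9ac, 57765 and 93384 bp of H3K27ac, 3596 and 7015 bp of Pol II, and 716 and 628 bp of H3K9me3. The sixth, on chromosome 14 from 16421857 to 16618471, had 42664 and 22580 bp of H3K9ac, 53185 and 68668 bp of H3K27ac, 4973 and 5616 bp of Pol II, and 3798 and 2576 bp of H3K9me3. Longer H3K27ac went with shorter H3K9ac in both, but Pol II was little changed in the sixth.

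The fifth domain, on chromosome 16 from 37079089 to 37259722, had the greatest drop in H3K9ac length of all 1575. Its H3K9ac length was 54800 bp in control and 13519 bp after butyrate, H3K27ac 55534 and 23372 bp, Pol II 3226 and 2298 bp, and H3K9me3 2184 and 3922 bp. The tenth, on chromosome 10 from 29840320 to 29973366, had the greatest drop in H3K27ac. It went from 46815 to 13430 bp of H3K27ac, from 41470 to 6844 bp of H3K9ac, from 1772 to 1209 bp of Pol II and from 470 to 3277 bp of H3K9me3. These were the only 2 of the 10 in which Pol II was shorter after butyrate, and in both H3K9me3 was longer.

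Pol II length increased most in the seventh domain, on chromosome 1 from 42683447 to 42864519, from 4682 to 15825 bp and from 18 to 44 peaks. This domain had 37374 and 31478 bp of H3K9ac, 52714 and 81998 bp of H3K27ac, and 676 and 1227 bp of H3K9me3. The eighth, on chromosome 15 from 14178301 to 14326690, went from 1280 to 8317 bp of Pol II, with 41972 and 23718 bp of H3K9ac, 50071 and 63536 bp of H3K27ac, and 798 and 1837 bp of H3K9me3. On the log2 scale the Pol II ratio was 1.76 in the seventh and 2.70 in the eighth domain. The ninth, on chromosome 5 from 60314135 to 60531873, had the most Pol II in control of the 10 and little change, from 9104 to 9987 bp. It had 36520 and 36062 bp of H3K9ac, 49397 and 82581 bp of H3K27ac, and 3913 and 4524 bp of H3K9me3.

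**Figure D5:**
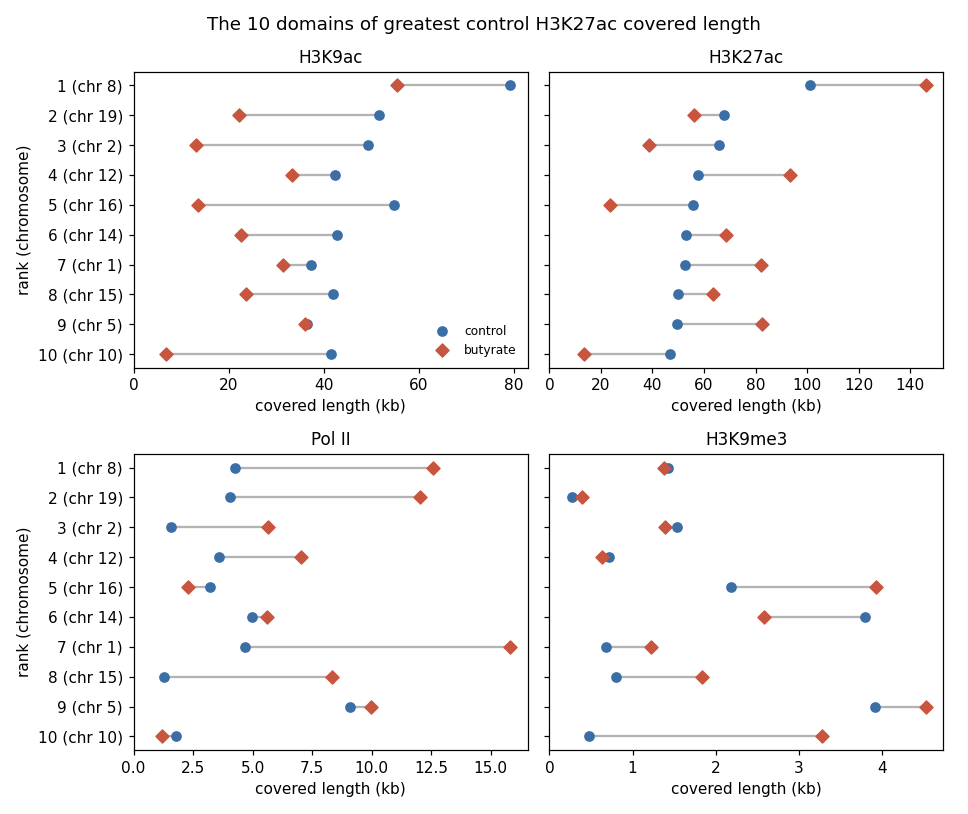
Covered length (kb) of each antibody in the 10 domains of greatest control H3K27ac covered length, control as blue circles and butyrate as red diamonds, labelled by rank and chromosome. H3K9ac is lower after butyrate in all 10, while Pol II is higher in 8, with the largest step in the seventh domain (4682 to 15825 bp).

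Outside the 10 largest, a few domains had the most extreme changes. The domain on chromosome 1 from 21594188 to 21717544 (rank 188) had the greatest increase in both acetyl marks. Its H3K27ac length was 16276 bp in control and 67393 bp after butyrate, H3K9ac 13604 and 25523 bp, Pol II 2484 and 6184 bp, and H3K9me3 703 and 252 bp. Its 39 control H3K27ac peaks became 106. In control only 13.2% of its span lay under H3K27ac peaks, below the lower quartile of the domains.

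The greatest drop in Pol II was on chromosome 14 from 43968063 to 44042522 (rank 1539), from 3324 to 683 bp. H3K9ac there was 7368 and 3675 bp, H3K27ac 5091 and 4993 bp, and H3K9me3 988 and 2312 bp. H3K9me3 increased most on chromosome 5 from 38050582 to 38210291 (rank 49), from 4040 to 11569 bp, in a domain with 27698 and 14061 bp of H3K9ac, 30233 and 23390 bp of H3K27ac, and 3722 and 4699 bp of Pol II. It dropped most on chromosome 5 from 79037285 to 79068406 (rank 754), from 2678 to 758 bp, with 7537 and 6965 bp of H3K9ac, 7876 and 11510 bp of H3K27ac, and 2173 and 1177 bp of Pol II. In the first 2 of these 3 domains both acetyl marks were shorter after butyrate and H3K9me3 longer, though H3K27ac differed little in the first. In the third, H3K27ac was longer, and H3K9ac and H3K9me3 were shorter. The domains were picked for extreme changes, so no relation between marks was read from them.

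At the threshold, H3K9ac was longer after butyrate in both domains inside it and shorter in both regions outside it. The domain with 5007 bp had 5455 and 6255 bp of H3K9ac, 9506 bp of butyrate H3K27ac, 1127 and 2138 bp of Pol II, and 1589 and 199 bp of H3K9me3. The domain with 5001 bp had 4164 and 5296 bp of H3K9ac, 7743 bp of butyrate H3K27ac, 206 and 1410 bp of Pol II, and 0 and 497 bp of H3K9me3. The regions just outside had 2712 and 1834 bp (4999 bp region) and 1953 and 782 bp (4997 bp region) of H3K9ac, and 8246 and 3404 bp of butyrate H3K27ac. Pol II was at 0 in control in both, and at 611 and 0 bp after butyrate. The threshold thus separates regions of nearly equal H3K27ac length.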

How the data were processed

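ChIP-seq peak lists of 8 MDBK libraries were analysed, and 1 input library was not analysed here. According to the methods, the authors aligned 75-nt reads to UMD3.1.1 (UMD3.1 in the submitters' processing notes, which also name Trim Galore 0.4.1) with BWA, kept unique alignments, and called peaks per library with MACS2 at default settings against the input. A deposited list holds 1 line per peak with its chromosome and its first and last position in bp, and no other value. The shortest peak was 199 bp, and starts were read as counted from 0, with 1 added where printed. The 89 mitochondrial peaks were left out.

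Domains, covered bases and overlaps of at least 1 bp were computed with Python 3.11.15, numpy 2.4.6 and scipy 1.17.1, figures with matplotlib 3.10.9, and the stitching was checked on simulated peaks. Background shares are over all stitched regions with a peak in either list. The regions named were the 10 of greatest control H3K27ac covered length, the greatest span, the most peaks, the greatest rise and fall in bp of each antibody, and 2 on each side of the threshold. Domains, rules and comparisons were chosen with earlier results of these data known. Groups of 1 allowed no test.

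The alternatives were stitching gaps of 5000 and 20000 bp, 7500 bp of covered length, peaks of 500 bp or more, autosomes only, lengths 1 bp longer, an overlap of 50% and a fold of 1.5. Lists of equal number and other choices of domains were added after the data had been seen. The reference at hand was another assembly (ARS-UCD2.0), so no gene or sequence was assigned.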

Additional observations from a re-analysis of the deposited data

How the results depend on the processing

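Each group had 1 library, so leaving out a library was not possible, and depth could not be equalised in lists without reads. No paired analysis was possible because a group held a single library and no test was run. The direction of the Pol II change was kept under all alternatives run (log2 ratio of covered bases 0.67 to 3.35), and that of H3K9ac under all except the choice of domains on the butyrate list (-1.93 to 0.19). H3K27ac (-0.33 to 1.31) and H3K9me3 (-0.051 to 2.45) turned direction under some. The causes were not tested. Counts of domains also depend on how many domains a setting leaves, and background shares were not computed under the alternatives, so no rate was read from these counts. Values are given in the order H3K9ac, H3K27ac, Pol II and H3K9me3 where all 4 are listed.

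With peaks of 500 bp or more, 600 domains were left. The shares with longer coverage after butyrate were 2.35%, 24.5%, 92.5% and 79.4%, and the H3K27ac log2 ratio was -0.33. Domains at least 2 times as long numbered 4, 10, 144 and 27, and those at most 0.5 times as long 131 (H3K27ac), 9 (Pol II) and 5 (H3K9me3). Retention of control H3K27ac peaks was 67.9%, and 59.8% were overlapped by control H3K9ac.

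With a gap of 5000 bp, 1077 domains were found. The shares with longer coverage were 6.87%, 42.7%, 83.8% and 52.4%, and the H3K27ac log2 ratio was -0.026. Domains at least 2 times as long numbered 1 for H3K9ac, 26 for H3K27ac and 253 for H3K9me3, and 79 had Pol II at most 0.5 times as long. Retention was 76.6% and overlap with H3K9ac 63.7%. With a gap of 20000 bp, 1786 domains were found, and the shares were 29.8%, 66.5%, 73.6% and 68.3%. Domains at least 2 times as long numbered 59 for H3K9ac and 414 for H3K27ac, retention was 74.2% and overlap 54.8%.

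At 7500 bp of covered length, 809 domains were left. The share with longer coverage was 16.0% for H3K9ac and 83.0% for Pol II. Domains at least 2 times as long numbered 3, 99, 477 and 306, and those at most 0.5 times as long 300, 35, 45 and 124. Retention was 76.3% and overlap 59.3%. A fold of 1.5 gave 77 and 501 domains with longer, and 834 and 219 with shorter, H3K9ac and H3K27ac. An overlap of 50% of the peak gave 65.8% retained and 46.1% overlapped. Autosomes only and lengths 1 bp longer moved no share beyond its interval and no count by more than 1.5 times.

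Among the alternatives added later, lists of equal number gave shares of 12.4%, 45.8%, 85.6% and 37.5%, and an H3K9me3 log2 ratio of -0.051. Domains chosen on butyrate H3K27ac gave 64.8%, 93.2% and 66.8% for the first 3 antibodies, and an H3K9ac log2 ratio of 0.19. Bases covered in both H3K27ac lists gave 19.1%, 69.5%, 85.7% and 59.3%.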
